A study of Mus musculus with 10 samples.

Results

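Mineralised bone matrix is laid down by osteoblasts and maintained by osteocytes, the cells that osteoblasts become when the matrix closes around them. Osteoblasts first secrete type I collagen and raise alkaline phosphatase on their surface, then add acidic proteins that bind calcium and collagen, and osteocytes later make proteins that control phosphate and bone formation. In the inner ear this tissue forms the bony capsule of the cochlea, against which the spiral ligament lies. Shortage of thyroid hormone in early life is known for delayed bone formation.

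The 10 genes described here are Alpl, Spp1, Ifitm5, Ibsp, Bglap, Bglap2, Phex, Dmp1, Mepe and Sost, which mark stages of this sequence. They were taken by symbol from a table of 18725 genes, and all 10 passed the filter on low counts that 14862 genes passed. The list was drawn up with the differences between these libraries known, so the values of the 10 genes are a description and carry no test. Where passing a threshold is mentioned for them, it describes the fit and counts as no evidence of a difference.

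RNA was sequenced in 5 hypothyroid and 5 euthyroid libraries of mouse cochlea, each from the outer sulcus, a strip of epithelium at the lateral edge of the cochlear duct, dissected with the spiral ligament under it. All mice were C57BL/6J at postnatal day 10. The mothers of the hypothyroid mice drank 0.05% methimazole, which blocks hormone synthesis, 1.0% sodium perchlorate monohydrate, which blocks iodide uptake, and 5.0% sucrose from embryonic day 17 through lactation, and the mothers of the euthyroid mice received vehicle. The agents reached the pups only through their mothers, and the labels name neither the litter nor the number of animals behind a library, so litter and treatment cannot be told apart and p-values measure only the spread among these libraries.

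The labels name no bone, although the extraction text in them speaks of femoral head cartilage at another age. All 6 fibrocyte markers of the spiral ligament and all 5 outer sulcus and root cell markers passed the filter on low counts. Of the fibrocyte markers, Otor averaged 6060 ± 797 CPM in hypothyroid and 5479 ± 258 CPM in euthyroid libraries (SD, n = 5 each), where CPM is the TMM-scaled count relative to library size, and Otos averaged 56.1 ± 20.7 and 3906 ± 766 CPM in that order. Library totals lay between 19298145 and 20063961 estimated counts. The contrast was broad, with 71.8% of the 14862 genes at an adjusted p under 0.05 in edgeR's quasi-likelihood test, 34.1% lower and 37.7% higher in hypothyroid libraries. Of the called genes 52.5% were higher as scaled, against 74.7% with library sizes alone (no TMM factors), and over all genes the log2 fold change had a median of 0.04 as scaled and 0.30 with library sizes alone.

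Among the 10 genes, 9 were lower at that threshold, where the background is 34.1%, and Spp1 was the exception. In 8 of them no hypothyroid library reached any euthyroid one, where the background is 28.5%, and 6 were at least 8-fold lower, where it is 1.14%. The genes were chosen on this contrast, so nothing is read from these shares. Their median log2 fold change (hypothyroid over euthyroid, here and throughout) was -5.07, the same with Bglap2 at its bound. In bulk tissue, fewer cells of a type and less RNA per cell cannot be told apart.

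**Figure D1:**
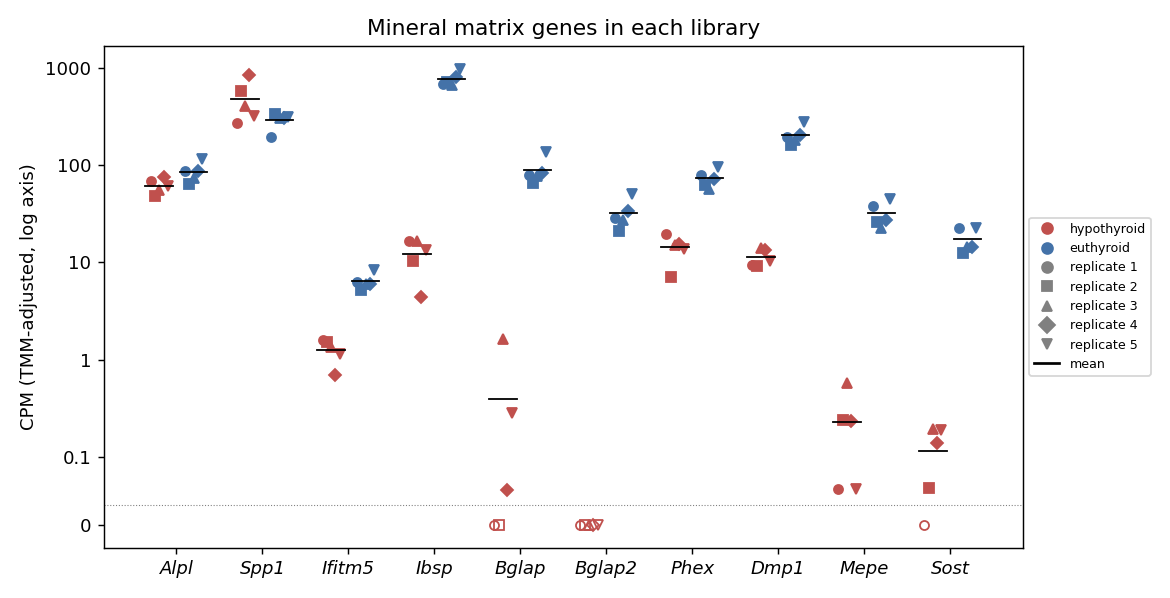
TMM-adjusted CPM on a log axis for the 10 genes in each of the 5 hypothyroid (left of each pair) and 5 euthyroid libraries, with symbols for replicates, bars for means, and open symbols on the lowest line for libraries with 0 counts. Alpl and Spp1 overlap between the groups, the other 8 genes do not, and Bglap2 is at 0 in all 5 hypothyroid libraries.

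Of the 10 genes, Alpl and Spp1 differed least between the groups. Alpl encodes tissue-nonspecific alkaline phosphatase, which frees phosphate for mineral and is also made outside bone. Its levels were 67.9, 48.2, 55.2, 74.5 and 61.3 CPM in hypothyroid replicates 1 to 5 and 86.5, 64.2, 73.1, 86.7 and 115 CPM in euthyroid replicates 1 to 5. The groups overlapped, with hypothyroid replicates 1 and 4 above the lowest euthyroid library. The log2 fold change was -0.47 (SE 0.17), and it was -0.20 with library sizes alone, a scaling in which the median of all genes was 0.30. Alpl passed the threshold as scaled, and did not with library sizes alone, upper quartile factors or the 3 limma fits, nor on leaving out hypothyroid replicate 2, 3 or 5 or euthyroid replicate 1 or 4.

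Spp1 encodes osteopontin, an acidic matrix protein of bone that macrophages, osteoclasts and several epithelia also make. Spp1 stood at 269, 577, 399, 834 and 316 CPM in hypothyroid replicates 1 to 5 and at 192, 332, 304, 304 and 310.2 CPM in euthyroid replicates 1 to 5. Hypothyroid replicate 4 was the highest of the 10 libraries, and hypothyroid replicates 1 and 5 lay within the euthyroid range. Its log2 fold change was 0.73 (SE 0.33). Spp1 did not pass the threshold as scaled, and it passed as higher with library sizes alone, upper quartile factors, DESeq2, limma on TPM or FPKM, the replicate block, and without hypothyroid replicate 1 or 5.

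All 8 macrophage markers were higher in the same hypothyroid libraries, where 37.7% of all genes were. Their summed level was 432 to 552 CPM, against 290.2 to 321 CPM in euthyroid libraries. Within the hypothyroid group, replicate 4, with the highest Spp1, had the lowest macrophage sum of 432 CPM, and replicate 5 had the highest sum of 552 CPM with 316 CPM of Spp1. The 5 tested osteoclast markers of 8 were lower, where 34.1% of all genes were. Their sums were 84.2 to 108 CPM in hypothyroid and 163 to 239 CPM in euthyroid libraries. Most of these sums came from Ctsk, at 74.9 ± 6.17 CPM in hypothyroid and 157 ± 19.1 CPM in euthyroid libraries. The part of either cell type in the Spp1 values was not tested.

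Ifitm5 encodes a small membrane protein of osteoblasts that is altered in a form of brittle bone disease. Its levels were 1.59, 1.52, 1.35, 0.692 and 1.13 CPM in hypothyroid replicates 1 to 5 and 6.27, 5.23, 5.92, 5.92 and 8.37 CPM in euthyroid replicates 1 to 5. Every hypothyroid library lay below every euthyroid one. The log2 fold change was -2.33 (SE 0.20), a 5.03-fold lower level.

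Transcripts of Ibsp, Bglap and Bglap2, which encode proteins of the mineralising matrix, were far lower. Ibsp encodes bone sialoprotein, an acidic protein that binds collagen and starts crystal formation. It had 16.5, 10.4, 16.6, 4.43 and 13.3 CPM in hypothyroid replicates 1 to 5, against 679, 707, 661, 793 and 973 CPM in euthyroid replicates 1 to 5. Ibsp was still detected in every hypothyroid library, with 96 to 353 counts. Its level was 62.3-fold lower (log2 fold change -5.96, SE 0.32), and hypothyroid replicate 4, the library with the most Spp1, held the least Ibsp.

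Bglap and Bglap2 encode osteocalcin, a small protein whose carboxylated glutamates bind calcium in bone, and they lie side by side on chromosome 3 of GRCm38.p6. Bglap spans 88383495 to 88384466 and Bglap2 spans 88377736 to 88378701. Of the 50-base windows of the Bglap transcript, 74.7% occur letter for letter in the Bglap2 transcript, and 69.2% of those of Bglap2 occur in Bglap. Reads were 50 bases long, so the division of counts between this pair rests on RSEM's estimate and their single values are uncertain.

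Bglap had 0, 0, 1.64, 0.0462 and 0.283 CPM in hypothyroid replicates 1 to 5, against 78.2, 65.2, 76.4, 82.1 and 137 CPM in euthyroid replicates 1 to 5. Of 40.8 counts over the hypothyroid group, 33.8 came from replicate 3, and replicates 1 and 2 had none. The level was 223-fold lower (log2 fold change -7.80, SE 0.56), and 991-fold lower without hypothyroid replicate 3. Bglap2 had 0 counts in all 5 hypothyroid libraries, against 28.4, 20.9, 27.2, 33.4 and 50.6 CPM in euthyroid replicates 1 to 5. With the hypothyroid group at 3 counts over the whole group, that is at least 1132-fold lower, a bound that covers counting error only.

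The share of Bglap2 in the counts of both genes could be set side by side. In hypothyroid replicate 3, the library of its group with the most osteocalcin counts, Bglap2 took 0 of 33.8 counts, with an exact Clopper-Pearson 95% interval up to 10.3%. Over the hypothyroid group Bglap2 took 0 of 40.8 counts, of which the floor of 3 counts used for the bound would be 7.35%. That value is not a Clopper-Pearson limit, and most of the pooled counts came from replicate 3. In euthyroid libraries Bglap2 took 26.6% ± 1.66 (SD, n = 5), with 24.3% to 28.9% in single libraries. The third copy, Bglap3, had 7.30 ± 3.20 CPM in hypothyroid and 15.3 ± 3.32 CPM in euthyroid libraries (SD, n = 5 each) and fell 2.09-fold (edgeR adjusted p = 0.00581). Of the Bglap windows 20.5% and of the Bglap2 windows 37.9% also occur in Bglap3, which held 778 counts over the hypothyroid group. The 0 of Bglap2, its bound and its share therefore rest on how RSEM assigned reads among the 3 copies.

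Among the osteocyte genes, Phex and Dmp1 were still expressed in hypothyroid libraries. Phex encodes a membrane peptidase of osteoblasts and osteocytes whose loss causes phosphate wasting, and it had 19.4, 7.08, 15.04, 15.6 and 13.8 CPM in hypothyroid replicates 1 to 5. In euthyroid replicates 1 to 5 Phex had 77.9, 62.8, 56.6, 71.3 and 94.9 CPM. The groups were apart, and the level was 5.12-fold lower (log2 fold change -2.36, SE 0.24), close to that of Ifitm5. Dmp1, an acidic protein of young osteocytes that binds mineral, had 9.40, 9.18, 14.1, 13.2 and 10.2 CPM in hypothyroid replicates 1 to 5 and 195, 161, 178, 204 and 274 CPM in euthyroid replicates 1 to 5. The level of Dmp1 was 18.1-fold lower (log2 fold change -4.17, SE 0.18), and every hypothyroid library lay below every euthyroid one. Hypothyroid replicate 4 had the second highest Dmp1 and the lowest Ibsp of its group.

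Mepe and Sost, the genes of mature osteocytes, were nearly absent. Mepe encodes a phosphoglycoprotein whose fragments restrain mineral, and it had 1, 5, 12, 5 and 1 counts in hypothyroid replicates 1 to 5, against 398 to 810 counts in euthyroid ones. In CPM that was 0.228 ± 0.217 and 31.7 ± 9.27 (SD, n = 5 each), 136-fold lower (log2 fold change -7.09, SE 0.38), and 215-fold lower without hypothyroid replicate 3. Sost encodes sclerostin, the secreted Wnt inhibitor by which osteocytes restrain osteoblasts, and it had 0, 1, 4, 3 and 4 counts in hypothyroid replicates 1 to 5, against 229 to 416 counts in euthyroid ones. Its level was 144-fold lower (log2 fold change -7.17, SE 0.35). With 24 and 12 counts over the hypothyroid group, the size of both folds is imprecise. On log2(TPM + 1) with limma, which understates differences of low genes, the log2 fold change was -5.02 for Mepe and -4.09 for Sost, and on log2(FPKM + 0.1) it was -6.27 for Mepe and -5.59 for Sost.

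Levels of different genes were compared on the deposited TPM, which adjusts for gene length. In hypothyroid libraries Spp1 came first at 916 ± 443 TPM and Alpl next at 66.5 ± 12.05 TPM, and no range overlapped between them or between Alpl and Ibsp. Ibsp followed at 16.9 ± 6.93 and Dmp1 at 10.8 ± 2.12 TPM with overlapping ranges, and Sost and Mepe were under 1 TPM in every library. In euthyroid libraries the order was Ibsp at 901 ± 145, Spp1 at 472 ± 90.2, Bglap at 459 ± 143, Bglap2 at 169.9 ± 57.9, Dmp1 at 168 ± 34.3, Alpl at 79.2 ± 17.3, Mepe at 43.7 ± 12.8, Phex at 26.3 ± 5.30, Ifitm5 at 21.4 ± 3.86 and Sost at 19.3 ± 5.46 TPM (SD, n = 5 each). Ranges overlapped between Spp1 and Bglap, between Bglap2 and Dmp1, and between each neighbouring pair from Mepe down to Sost.

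The make-up of the summed transcripts therefore differed. Spp1 gave 87.8% ± 5.33 of the summed TPM of the 10 genes in hypothyroid and 20.3% ± 4.46 in euthyroid libraries (SD, n = 5 each). Ibsp gave 2.07% ± 1.28 and 38.3% ± 1.40, and Bglap gave 0.278% ± 0.488 and 19.2% ± 2.53, in hypothyroid and euthyroid libraries in that order. Alpl gave 7.35% ± 3.09 and 3.35% ± 0.396 in the same order.

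**Figure D2:**
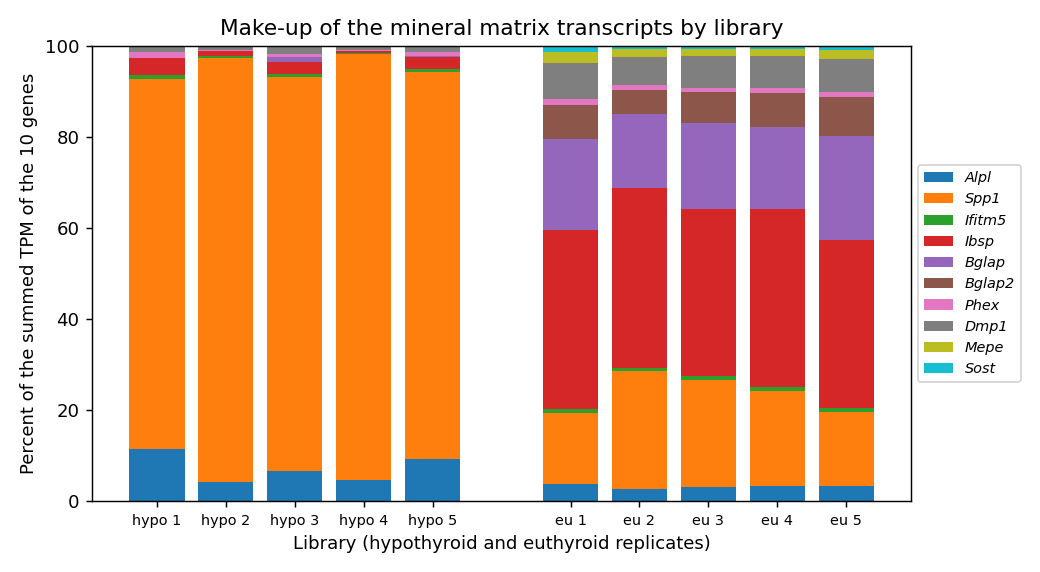
Each bar is 1 library and shows the percent of the summed TPM of the 10 genes taken by each, with the 5 hypothyroid bars left of the 5 euthyroid bars. Spp1 fills most of every hypothyroid bar (mean 87.8%), and Ibsp is the largest part of every euthyroid bar (mean 38.3%).

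Within a group, single libraries stood high or low for several genes at once. By CPM in the hypothyroid group replicate 3 was the highest for Bglap, Ibsp, Dmp1, Mepe and Sost, replicate 1 for Phex and Ifitm5, and replicate 4 for Spp1 and Alpl. For Ibsp and Sost the lead of replicate 3 was small. By deposited TPM replicate 1 was the highest for Ibsp (22.96, against 22.35 in replicate 3) and replicate 5 for Sost (0.27, against 0.26). Euthyroid replicate 5 was the highest euthyroid library for 8 of the 10 genes, all but Sost and Spp1. Its levels were 1.37 to 1.84 times the mean of the other 4 libraries in 9 genes and 1.10 times in Spp1. Euthyroid replicate 2 was the lowest for 6 genes. Correlated with the mean of the other 9 genes over the 10 libraries, after removal of group means, Dmp1 had the highest Pearson's r of 0.86 and Spp1 the lowest of -0.21. These r values describe libraries that share dissection, depth and scaling, and the low counts of Bglap, Mepe and Sost add noise to them.

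**Figure D3:**
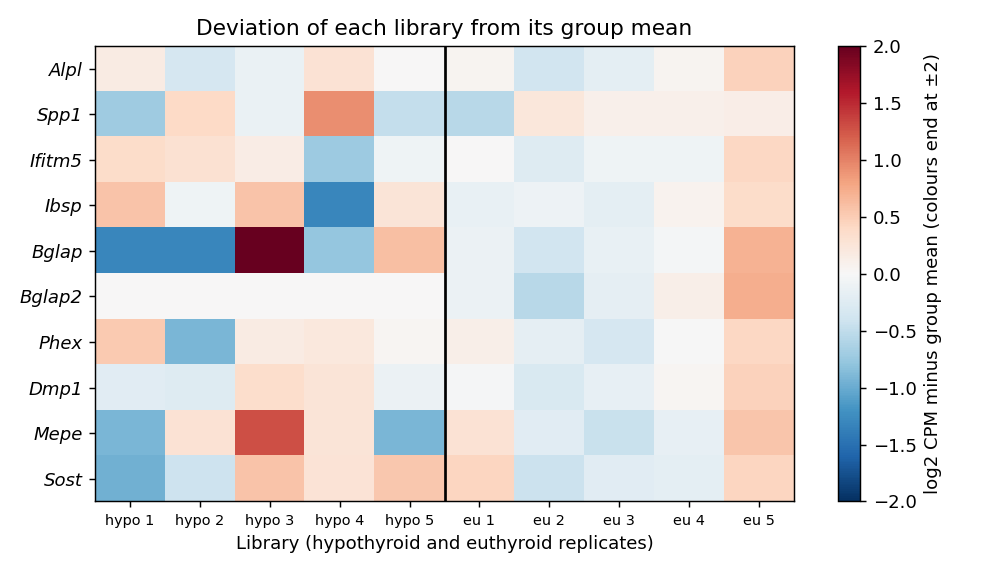
Log2 CPM of each gene minus its mean in the group, for 5 hypothyroid libraries left of the line and 5 euthyroid libraries right of it, with red above and blue below the group mean. The hypothyroid columns differ most in Bglap, which has few counts there, and the column of euthyroid replicate 5 is above its group mean in all 10 genes.

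The genes outside the list whose deviations were most like the mean of the 10 genes, of 11975 genes averaging 5 CPM or more, were Cwf19l1, Man1c1, Lsm4, Haus2, Mrpl48, Arpc5l, 2510009E07Rik, Tmed2, Rbsn and Prpf31. Pearson's r over the 10 libraries ran from 0.93 for Cwf19l1 to 0.88 for Prpf31, and Spearman's rho from 0.67 to 0.94 over the 10 genes. None of them is a bone gene of the lists below. The choice was unstable, with 1 to 6 of the 10 names kept when any single library was left out and 5 kept with library sizes alone.

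By position, 4 members form a cluster, Bglap and Bglap2 form a pair, and the other 4 lie singly. Dmp1, Ibsp, Mepe and Spp1 are members of a family of acidic bone and tooth proteins and lie in that order on chromosome 5, with 238 kb between the starts of Dmp1 and Spp1. Their log2 fold changes were -4.17, -5.96, -7.09 and 0.73, so the cluster holds members that were far lower and the one that was not. Dspp, the dentin gene of the family, next to Dmp1, had 9 counts over the hypothyroid and 26 over the euthyroid libraries and did not pass the filter; without the filter its log2 fold change was -1.69 (edgeR adjusted p = 0.0136). Sparcl1, a secreted protein gene beyond Dspp, fell 2.49-fold, with 1408 ± 80.9 CPM in hypothyroid and 3512 ± 91.03 CPM in euthyroid libraries (SD, n = 5 each; edgeR adjusted p = 8.97e-12). Pkd2, a polycystin gene after Spp1, fell little (log2 fold change -0.30, edgeR adjusted p = 1.72e-05) and did not pass with library sizes alone (adjusted p = 0.495).

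**Figure D4:**
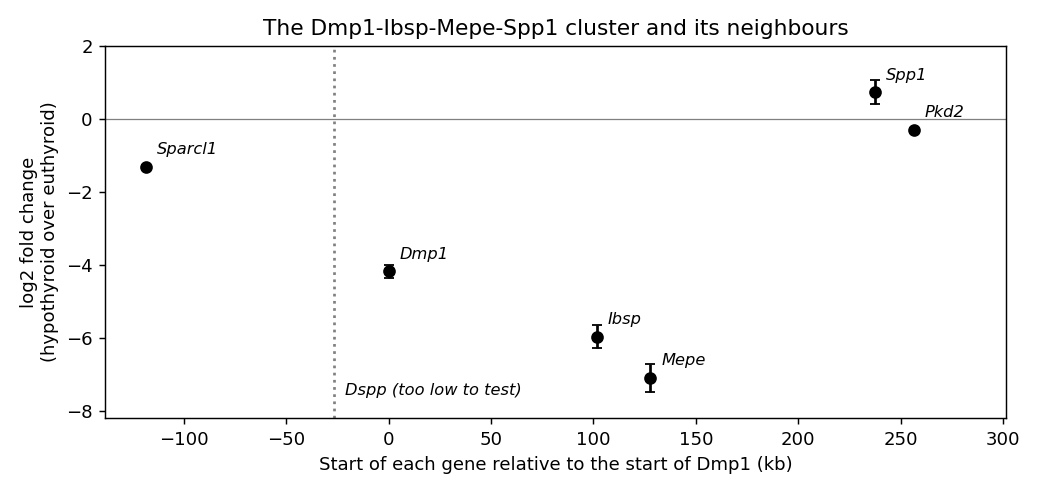
Log2 fold change (hypothyroid over euthyroid, with SE) against the start of each gene relative to that of Dmp1 in kb, for the cluster on chromosome 5; the dotted line marks Dspp, which did not pass the filter. Ibsp and Mepe are the lowest points at -5.96 and -7.09, and Spp1 is at 0.73.

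Of the 12 nearest tested genes on either side of the members that are not members themselves, 7 fell, 3 rose and 2 did not pass, where 34.1% of all genes fell and 37.7% rose, with a median log2 fold change of -0.35. Dusp3, a phosphatase gene 4126 bases from Sost, fell (log2 fold change -0.52, edgeR adjusted p = 3.64e-06), as did Meox1 on the other side (-0.83, edgeR adjusted p = 1.42e-05). Ifitm2, next to Ifitm5, rose (log2 fold change 0.34, edgeR adjusted p = 3.13e-05), and Pgghg on its other side had 0.15 (edgeR adjusted p = 0.0630), but passed as higher with library sizes alone (0.42), upper quartile factors (0.26), the stricter filter (0.17), the 3 limma fits and without hypothyroid replicate 2 (0.22, edgeR adjusted p = 0.000784). Beside Bglap, Pmf1 had a log2 fold change of 0.03 (edgeR adjusted p = 0.719), and passed as higher with library sizes alone (0.30, edgeR adjusted p = 0.00239) and in the 3 limma fits. The largest difference was in Ptchd1, which had 5.76 ± 1.69 CPM in hypothyroid and 0.288 ± 0.103 CPM in euthyroid libraries (SD, n = 5 each; log2 fold change 4.30, edgeR adjusted p = 3.81e-09) and lies 1537905 bases from Phex. Sms, on the other side of Phex, and Ece1 beside Alpl fell (log2 fold changes -0.43 and -0.40, edgeR adjusted p = 3.60e-06 and 2.25e-05), and Rap1gap beside Alpl rose (1.06, edgeR adjusted p = 9.43e-10).

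The windows of 250 bases before the transcription starts were read from RefSeq on GRCm38.p6, which held 9 of the 10 genes. The core letters bound by RUNX factors, the regulators of osteoblast fate, are ACCACA, or TGTGGT on the other strand, and 14.0% of 32851 windows of all genes hold them. Among the members 4 of 9 genes did, Bglap, Dmp1, Mepe and Spp1, where 15.9% of 27025 genes do. The windows that hold the core are shown. Capitals mark the RUNX core, and each window is written 5′ to 3′ on the strand of its gene.
Bglap, chr3:88384467-88384716, minus strand: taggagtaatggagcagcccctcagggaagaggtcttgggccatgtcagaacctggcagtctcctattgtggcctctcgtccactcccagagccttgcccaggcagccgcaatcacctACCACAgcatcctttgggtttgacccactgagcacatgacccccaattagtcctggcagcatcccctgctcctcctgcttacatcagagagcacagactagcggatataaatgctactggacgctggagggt
Dmp1, chr5:104202367-104202616, plus strand, second start: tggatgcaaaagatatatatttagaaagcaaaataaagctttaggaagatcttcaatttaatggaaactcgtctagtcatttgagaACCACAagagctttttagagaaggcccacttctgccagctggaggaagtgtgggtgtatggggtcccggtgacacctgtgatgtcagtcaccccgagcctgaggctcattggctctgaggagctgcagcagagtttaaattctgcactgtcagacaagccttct
Mepe, chr5:104325079-104325328, plus strand: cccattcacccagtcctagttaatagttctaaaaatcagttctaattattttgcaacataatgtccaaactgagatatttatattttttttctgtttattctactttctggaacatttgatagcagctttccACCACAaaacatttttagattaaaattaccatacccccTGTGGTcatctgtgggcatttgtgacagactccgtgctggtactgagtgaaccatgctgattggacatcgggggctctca
Spp1, chr5:104434861-104435110, plus strand: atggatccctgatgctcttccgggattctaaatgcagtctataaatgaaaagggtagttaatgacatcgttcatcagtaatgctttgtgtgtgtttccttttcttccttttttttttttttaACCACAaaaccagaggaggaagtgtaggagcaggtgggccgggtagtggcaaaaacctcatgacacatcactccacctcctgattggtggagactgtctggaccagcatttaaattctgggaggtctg

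The core begins 132 bases before the start in Bglap, 164 in Dmp1, 118 and 80 in Mepe and 128 in Spp1. The core was not found in the windows of Alpl, Ifitm5, Ibsp, Phex and Sost. The part of the core in any difference between the groups was not tested. The direct repeat that is the classic thyroid hormone response element, searched on either strand as 2 copies of AGGTCA 4 bases apart, was found in none of the 9 genes and in 0.0152% of all windows, and the single site AGGTCA in Alpl only and in 14.0% of windows. The letters of the TATA box, TATAAA on either strand, were also searched. They were found in 5 of the 9 genes, Bglap, Ibsp, Mepe, Spp1 and Alpl, where 14.3% of all genes hold them. A match is a description of letters, and no match says only that these letters are not in these windows.

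Other genes of bone formation were tested, taken in 5 lists by known role with earlier results of these data known. Of 58 genes, 53 were tested, and 36 fell, 9 rose and 8 did not pass, where 34.1% of all genes fell and 37.7% rose. As the lists were drawn up so, nothing is read from these shares or from the counts of single lists. The median log2 fold change was -0.48, against 0.04 over all genes; with library sizes alone 29 were lower and 15 higher. Of 10 tested osteoblast regulators 7 fell, 1 rose and 2 did not pass (median -0.61). Runx2, the transcription factor that starts the lineage, did not pass, at 15.7 ± 5.36 CPM in hypothyroid and 16.6 ± 4.04 CPM in euthyroid libraries (SD, n = 5 each; log2 fold change -0.08, edgeR adjusted p = 0.776). Its direction turned to 0.18 with library sizes alone.

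Sp7 (osterix), which acts after Runx2, fell 3.18-fold, with 5.23 to 12.5 CPM in hypothyroid and 20.9 to 32.6 CPM in euthyroid libraries (log2 fold change -1.67, edgeR adjusted p = 3.25e-05). The homeobox genes Dlx3 and Dlx5 fell 9.29-fold and 2.24-fold (edgeR adjusted p = 2.50e-07 and 0.00236). Dlx3 had 34.0 counts over the hypothyroid group, and its log2 fold change ranged from -3.40 to -1.42 over the alternatives. The regulator that rose, Twist1, named after its value was seen, is known to restrain Runx2 and rose little (log2 fold change 0.26, edgeR adjusted p = 0.00328). Dlx6 did not pass the filter and without it had a log2 fold change of -2.99 (edgeR adjusted p = 2.84e-05), with 13.01 counts over the hypothyroid and 91.7 over the euthyroid libraries.

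The 2 chains of type I collagen, the main protein of bone, differed from each other. Col1a1 had 31.7, 15.0, 32.3, 16.2 and 26.9 CPM in hypothyroid replicates 1 to 5, against 301, 256, 314, 382 and 554 CPM in euthyroid replicates 1 to 5, and fell 14.8-fold (edgeR adjusted p = 4.56e-06, log2 fold change -3.89 with SE 0.32). Euthyroid replicate 5 was again the highest library. Col1a2 stood far above Col1a1 in every library, and whether annotation or counting lowered the deposited values of Col1a1 was not tested. Col1a2 had 5879 ± 295 CPM in hypothyroid and 6228 ± 309 CPM in euthyroid libraries (SD, n = 5 each) and did not pass (log2 fold change -0.08, edgeR adjusted p = 0.181), and its direction turned to 0.18 with library sizes alone (edgeR adjusted p = 0.00330). Of the 11 genes of collagen and its assembly 6 fell, 3 rose and 2 did not pass (median -0.26). Sparc (osteonectin), a collagen-binding protein of many connective tissues, fell 3.12-fold, with 6027 ± 289 CPM in hypothyroid and 18821 ± 1548 CPM in euthyroid libraries, and the collagen hydroxylase gene Plod2 fell 3.53-fold (edgeR adjusted p = 1.02e-11 and 2.20e-13).

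Genes for the handling of mineral were lower where they changed. In all, 8 of the 10 tested genes fell and none rose, while 2 were not past the threshold (median -0.996), and with library sizes alone 8 were lower and 2 higher. Enpp6, a choline phosphodiesterase known from osteoblasts, fell 70.9-fold, with 0.421 to 0.646 CPM in hypothyroid and 30.6 to 45.03 CPM in euthyroid libraries (edgeR adjusted p = 4.91e-13). Smpd3, the sphingomyelinase needed for mineral in bone and cartilage, fell 51.3-fold, with 2.03 to 6.45 CPM in hypothyroid and 179 to 249.7 CPM in euthyroid libraries (edgeR adjusted p = 1.46e-08). Phospho1, a phosphatase of matrix vesicles, fell 24.2-fold, with 2.40 to 3.83 CPM in hypothyroid and 64.3 to 85.9 CPM in euthyroid libraries (edgeR adjusted p = 2.20e-13). These 3 enzymes act with the product of Alpl in supplying phosphate, and their decrease exceeded the 1.39-fold lower level of Alpl in the same libraries; that difference between genes was not tested. The phosphate transporter gene Slc20a1 fell 2.62-fold (edgeR adjusted p = 3.04e-09). Mgp and Enpp1, whose products restrain mineral and which were named after their values were seen, did not pass as scaled (log2 fold changes 0.03 and -0.03, edgeR adjusted p = 0.766 and 0.663). They were the 2 genes of this list called higher with library sizes alone. Ank, another such gene of this list, fell 1.71-fold (edgeR adjusted p = 7.50e-09).

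Signals of osteocytes and bone cells moved both ways, with 4 of 9 tested genes higher, 4 lower and 1 that did not pass (median -0.02); with library sizes alone 6 were higher and 2 lower. Dkk1, a Wnt inhibitor like sclerostin, fell 21.6-fold to 0.132 ± 0.0620 CPM in hypothyroid libraries, against 2.98 ± 1.24 CPM in euthyroid ones (SD, n = 5 each; edgeR adjusted p = 6.72e-08). Dkk1 had 14.02 counts over the hypothyroid group, so the size of its fold is imprecise. Its log2 fold change was -4.43 as scaled and ranged from -4.73 to -1.75 over the alternatives. Tnfrsf11b, the gene of osteoprotegerin, which restrains osteoclasts, fell 4.17-fold (edgeR adjusted p = 2.44e-10). Ostn, a secreted peptide gene of osteoblasts and muscle, rose 8.41-fold from few counts, with 192 over the hypothyroid and 19 over the euthyroid libraries (edgeR adjusted p = 7.68e-08), and Pthlh rose to 1.86 ± 0.404 CPM in hypothyroid libraries, against 0.932 ± 0.330 CPM in euthyroid ones (edgeR adjusted p = 0.00150). Fgf23, the phosphate hormone that PHEX and DMP1 hold down in mouse bone, had 2, 15, 11, 7 and 5.10 counts in hypothyroid replicates 1 to 5 and 0, 1, 1, 4 and 2 counts in euthyroid replicates 1 to 5 and did not pass the filter. Without the filter its log2 fold change was 2.02 (SE 0.64, edgeR adjusted p = 0.0113), from these few counts.

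The list of receptors and processing enzymes was mostly lower, with 11 of 13 lower, 1 higher and 1 that did not pass (median -0.60). With library sizes alone 8 were lower and 1 higher. The hormone receptor genes Pth1r and Vdr, whose products do not act on the members' proteins, were among the 11. Cd44, a receptor for osteopontin, fell 2.71-fold, with 41.3 ± 3.55 CPM in hypothyroid and 112 ± 12.02 CPM in euthyroid libraries (SD, n = 5 each; edgeR adjusted p = 5.82e-10). Lrp4, which anchors sclerostin on bone cells, was the one that rose, with 94.4 ± 5.23 CPM in hypothyroid and 41.5 ± 4.78 CPM in euthyroid libraries (2.28-fold, edgeR adjusted p = 1.13e-09). Ggcx, the enzyme that carboxylates osteocalcin, also named after its value was seen, fell 1.76-fold (edgeR adjusted p = 1.88e-08).

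**Figure D5:**
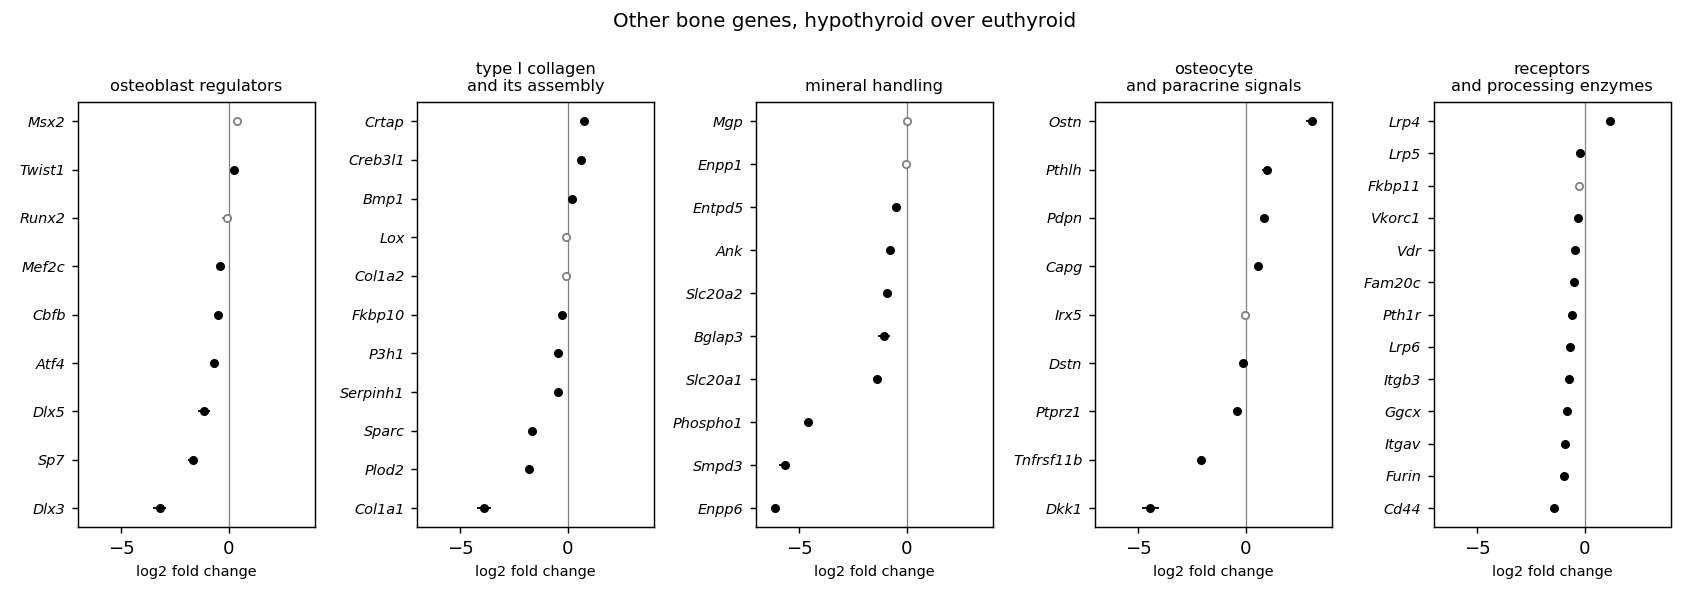
Log2 fold change (hypothyroid over euthyroid, with SE) of the tested genes reported from the 5 lists, 1 panel a list; filled points passed an edgeR adjusted p of 0.05 and open points did not. The leftmost points are Enpp6, Smpd3 and Phospho1 in the panel of mineral handling, Dkk1 in that of osteocyte signals and Col1a1 in that of collagen, whereas Runx2 and Col1a2 lie near 0.

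Markers of other tissues and cells differed in both directions, where 34.1% of all genes fell and 37.7% rose. Cartilage markers summed to 13436 to 14391 CPM in hypothyroid and 32875 to 38106 CPM in euthyroid libraries, mostly from Col2a1. Of the 6 tested, 3 fell and 2 rose. Col10a1 and Mmp13, markers of the hypertrophic cartilage that precedes bone, fell 8.28-fold and 2.42-fold, and the 3 markers summed to 0.969 to 3.25 CPM in hypothyroid and 4.80 to 8.27 CPM in euthyroid libraries. Of 7 marrow and neutrophil markers 6 were tested and 5 did not pass, with sums of 32.1 to 62.4 CPM in hypothyroid and 43.4 to 89.7 CPM in euthyroid libraries. Of 6 erythroid markers 5 did not pass, with sums of 492 to 710.3 CPM in hypothyroid and 437 to 799 CPM in euthyroid libraries. Outer sulcus and root cell markers summed to 1505 to 2187 CPM in hypothyroid and 4389 to 4978 CPM in euthyroid libraries, mostly from Epyc. Endothelial markers summed to 261 to 317 CPM and 330 to 431 CPM in that order. All of both lists fell as scaled, Pecam1 and Cdh5 little (log2 fold changes -0.26 and -0.23). Calls of markers under other scalings are not given here, and with library sizes alone the median over all genes moved from 0.04 to 0.30. Fibrocyte markers summed to 9772 to 12498 CPM in hypothyroid and 16917 to 20362 CPM in euthyroid libraries. Of these 6, Otos fell 69.7-fold, Coch 10.97-fold and Car3 1.56-fold, Tgfbi rose 3.32-fold, Pou3f4 rose 1.12-fold and Otor did not pass. Hair cell markers summed to 31.9 to 41.6 CPM in hypothyroid and 38.5 to 86.2 CPM in euthyroid libraries, with 3 of 5 lower, 1 higher and 1 that did not pass. Slc26a5 was at 0 in every hypothyroid library, and Myo7a rose 2.45-fold. The 7 osteoblast lineage markers summed to 5568 to 6217 CPM in hypothyroid and 6278 to 7445 CPM in euthyroid libraries, mostly from Col1a2, and 5 fell. The labels do not say how much of the bony capsule was dissected, and the part of these other cell types in the values of the 10 genes was not tested.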

How the data were processed

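The authors deposited RSEM expected counts, FPKM and TPM per gene and library. Per the labels' protocols, polyA RNA was read as single-end 50-base reads on a BGISEQ-500, and the submitters' processing notes list the build GRCm38.p6 and the tools RSEM 1.2.12, Bowtie2 2.2.5 and HISAT2 2.0.4; strand use is not given in the sources used here. The deposited TPM and FPKM are per-length values and were used for levels between genes and for limma. A further 18 columns of scaled counts and means were not used.

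Expected counts were rounded and tested with edgeR 4.0.16 in R 4.3.3 (quasi-likelihood, TMM, filterByExpr with a minimum count of 10, Benjamini-Hochberg adjustment over 14862 genes, threshold 0.05, groups only, no covariates). Alternatives were other scalings and filters, DESeq2 1.42.0, limma 3.58.1 on log2 TPM or FPKM plus 0.1 (TPM also plus 1), a replicate block, and each library left out. The edgeR fit was tested on simulated data in which few genes changed, as many up as down. That test could not examine how calls depend on scaling in a contrast as broad as this one. The 10 members and all lists were chosen with earlier results of these data known. Named genes were the members, list genes past the threshold with at least 2-fold change, Runx2, Sp7, Col1a1, Col1a2, Fgf23, chromosome neighbours and the 10 genes of most similar deviations; 1 list gene is counted in its lists but not reported here by name or drawn. Intervals and floors cover counting error only. No pair of libraries agreed within sampling noise.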

Additional observations from a re-analysis of the deposited data

Results flagged for a closer look

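Of 101 sets of 5 libraries examined for 1 library apart from the other 4 by Dixon's criterion, 12 were marked, where chance marks about 1 in 20. Among the members, hypothyroid replicate 3 had 1.64 CPM of Bglap (the others 0 to 0.283), euthyroid replicate 5 had 137 CPM of Bglap (the others 65.2 to 82.1), and euthyroid replicate 1 had 192 CPM of Spp1 (the others 304 to 332).

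Low libraries were also seen for Bglap3 in euthyroid replicate 1 at 9.56 CPM (15.9 to 17.9), Cd44 in euthyroid replicate 3 at 90.9 CPM (114 to 121), and Pgghg in hypothyroid replicate 2 at 47.1 CPM (59.3 to 63.2) and euthyroid replicate 4 at 48.9 CPM (52.9 to 54.1). Dusp3 was high in hypothyroid replicate 4 at 62.5 CPM (50.04 to 53.4). Hypothyroid replicate 3 was high for Lsm4 at 20.1 CPM (17.02 to 17.8), Arpc5l at 53.2 CPM (48.8 to 49.5), Rbsn at 48.99 CPM (45.1 to 46.1) and Prpf31 at 42.4 CPM (37.4 to 38.7). These 4 genes were picked for their likeness to a profile that is itself high in that library.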

How the results depend on the processing

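Counts of calls depended on the scaling. Genes called higher numbered 5603 as reported, 8650 with library sizes alone and 8541 with limma on FPKM, and genes called lower numbered 5064, against 2928 with library sizes alone and 3226, 2966 and 3219 with limma on TPM plus 0.1, FPKM plus 0.1 and TPM plus 1. List genes called higher were 9 as reported and 15 with library sizes alone and the 3 limma fits, and neighbours called higher were 3 and 5 under the same settings. Members called higher were 0 as reported and 1 (Spp1) with library sizes alone, upper quartile factors, DESeq2, the 3 limma fits and the replicate block, and 0 to 1 with 1 library left out. Of the 10 genes of similar deviations, 5 were kept with library sizes alone and 1 to 6 with 1 library left out. Runx2 turned to 0.18 with library sizes alone, 0.0271 with upper quartile factors and 0.0846, 0.12 and 0.0794 in the 3 limma fits, and ranged from -0.27 to 0.0590 with 1 library left out. Col1a2 turned to 0.18, 0.0271, 0.14, 0.18 and 0.14 in the same settings, and DESeq2 called it lower (-0.11, adjusted p = 0.0472). Pmf1 ranged from -0.0143 to 0.0538 with 1 library left out, the negative value being without euthyroid replicate 3, and passed as higher with library sizes alone and in the 3 limma fits (0.26 to 0.31). Without the filter, 10 list genes were called higher and 38 lower. The cause of these changes was not tested. Same-numbered libraries had correlations of deviations of 0.11, -0.08, 0.00, 0.04 and 0.09, so no pairing by number was seen. Whether same-numbered libraries shared a litter or batch was not tested. The replicate block gave 10392 called genes, against 10667 without it. Depth limits the folds of Bglap, Bglap2, Mepe and Sost, which had at most 40.8 counts over the hypothyroid group. Dlx3, Dkk1, Col10a1 and Enpp6 had 34.0, 14.02, 21 and 57 counts over that group, which limits their folds too.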

Other observations

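The chains of type I collagen stood in very different proportions by TPM. Col1a2 over Col1a1 was 213 to 423 in hypothyroid libraries and 13.8 to 26.1 in euthyroid ones, where Col1a1 averaged 10.9 ± 3.68 TPM in hypothyroid and 138 ± 43.1 TPM in euthyroid libraries and Col1a2 averaged 2994 ± 167 TPM in hypothyroid and 2710.2 ± 105 TPM in euthyroid libraries (SD, n = 5 each). The type I protein known from bone holds more of the chain that Col1a1 encodes. The level of Col1a2 above Col1a1 in every library, euthyroid ones included, is a measured value whose cause was not tested.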
